A study of Mus musculus with 12 samples.

Results

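The neuronal and neuroblast genes described here are 10 transcripts of neurons and of their newborn precursors, taken by symbol from the count matrix of a mouse brain sorting experiment. They are Snap25, Syt1, Nrgn and Rbfox3 of mature neurons, Map1b, Tubb3 and Stmn2 of axons and microtubules, Sox11 of neuroblasts, the long non-coding RNA Meg3 and the reticulon Rtn1. All 10 had counts, among the 18571 genes with at least 1 count and the 47643 genes in the matrix.

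The study sorted viable brain cells of old male p16-3MR mice by red fluorescence, to compare cells with high and low activity of the promoter of p16, a cell cycle inhibitor that is used as a marker of senescence. In these C57BL/6 mice the p16 promoter drives a reporter transgene with mRFP, the fluorescent label of the sort. The sort thus selects on promoter activity and not on a cell type. There were 5 mice, aged 113, 115, 116, 116 and 116 weeks (mice 1 to 5), and each gave 1 sample of cells with high fluorescence (RFPpos, the RFPHigh cells of the study) and 1 with low fluorescence (RFPneg, RFPLow). The cells were dissociated with enzymes in the cold, myelin was removed on Percoll, and nucleated, viable cells of each mouse were sorted separately. No drug or other treatment was part of the comparison, and 2 single-cell samples of the series were not analysed here. Bulk 3′ libraries gave between 177287 and 415834 counts on genes in the RFPneg samples and between 222560 and 289713 in the RFPpos samples, so that 1 count corresponded to several CPM (counts scaled to a common library size) and most of these transcripts were seen as a few counts per sample.

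Neurons release transmitter when synaptotagmins sense calcium and SNARE proteins fuse vesicles with the membrane, and their axons rest on microtubules built from neuron-specific tubulins and associated proteins. In the adult mouse brain new neurons arise in the subventricular zone and the hippocampus, and their neuroblasts express Sox11, Dcx, Tubb3 and Dlx genes before they mature. Mature neurons have long processes, many of which are lost when adult tissue is dissociated. In bulk samples, fewer cells of a type and less RNA per cell cannot be told apart.

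Of the 10 members, all had at least 10 counts and were tested, and 5 were called lower in RFPpos at an adjusted p-value (q) under 0.05 (edgeR's quasi-likelihood test with the mouse as a block and Benjamini-Hochberg adjustment over the 12270 genes tested) and a log2 fold change below -1, while 0 were called higher. The called members were Snap25, Tubb3, Stmn2, Sox11 and Meg3. Among all genes tested, 6.75% were called lower and 2.80% higher by the same rule. The log2 fold change was below 0 for 9 of the 10 members, with a median of -1.87, against a median of -0.15 over all genes tested. Of all genes tested, 57.0% had a log2 fold change below 0. In 3 members, Snap25, Tubb3 and Stmn2, every RFPpos sample lay below every RFPneg sample in CPM, and in 0 members did every RFPpos sample lie above. Over all genes tested these shares were 6.00% and 3.65%. The number of called members was 3 without mouse 2 and 2 without mouse 4, and only the call of Stmn2 held without each of the 5 mice.

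**Figure D1:**
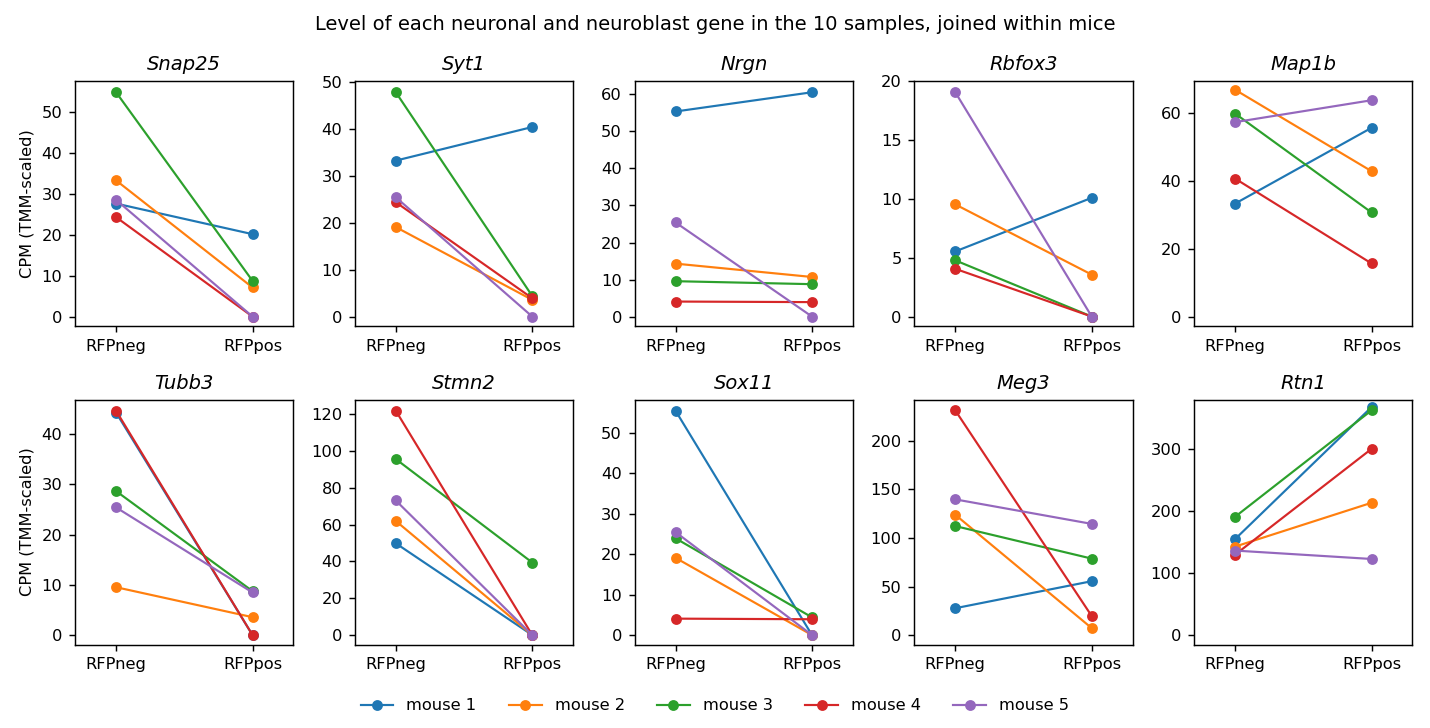
Level of each member in CPM (vertical axes, scaled with TMM and starting near 0, each panel with its own range) in the RFPneg and RFPpos samples, with a line joining the 2 samples of each mouse. Stmn2 lay at 0 CPM in 4 RFPpos samples and at 39.4 CPM in that of mouse 3, while Rtn1 had higher values in the RFPpos samples of 4 of 5 mice. The fitted log2 fold change of Rtn1 was -0.35 (q = 0.248) with scaling to microglia markers. Nrgn and Syt1 were highest among RFPpos samples in mouse 1.

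Snap25 encodes a SNARE protein of the presynaptic membrane (chr2:136713453-136782428 in GRCm38, plus strand). It had 5, 7, 23, 6 and 9 counts in the RFPneg samples of mice 1 to 5 and 4, 2, 2, 0 and 0 counts in the RFPpos samples. The level was 33.8 ± 12.3 CPM in RFPneg and 7.21 ± 8.29 CPM in RFPpos (SD, n = 5 each). Every RFPpos sample lay below every RFPneg sample, and the sample of mouse 1 was the highest of the RFPpos samples. Snap25 had a log2 fold change of -2.37 ± 0.72 (SE; q = 0.0122), lower in 5 of 5 mice. It was not called without mouse 3 (-2.33, q = 0.104) or mouse 4 (-2.09, q = 0.0628), and the log2 fold change was -3.11 without mouse 1. With DESeq2 q was 0.0530.

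Syt1, the calcium sensor of fast transmitter release, had 6, 4, 20, 6 and 8 counts in RFPneg and 8, 1, 1, 1 and 0 counts in RFPpos. Most of its RFPpos counts lay in mouse 1, where RFPpos exceeded RFPneg at 40.4 against 33.2 CPM, and the populations overlapped. The log2 fold change was -1.96 ± 0.73 (SE), with a q of 0.0569, which was not called. Without mouse 1 it was -3.09 with a q of 0.0179, and with median-of-ratios scaling q was 0.0477.

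Nrgn, neurogranin, binds calmodulin in the dendrites of forebrain excitatory neurons. It had 10, 3, 4, 1 and 8 counts in RFPneg and 12, 3, 2, 1 and 0 counts in RFPpos. In both populations the sample of mouse 1 was the highest, at 55.4 CPM in RFPneg and 60.6 CPM in RFPpos, and the other RFPpos samples lay between 0 and 10.7 CPM. The log2 fold change of -0.65 ± 0.76 (SE; q = 0.723) did not pass the test, and it was -0.08 without mouse 5.

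Rbfox3 encodes NeuN, the nuclear splicing factor by which mature neurons are usually stained. It had 1, 2, 2, 1 and 6 counts in RFPneg and 2, 1, 0, 0 and 0 counts in RFPpos. The pooled level was 3.50 times higher in RFPneg, with a 95% exact counting interval from 0.945 to 19.3. Mouse 1 gave 2 of the 3 RFPpos counts, and without it the fitted log2 fold change was -2.88 in place of -1.78. A difference was not detectable at this depth (q = 0.526).

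Map1b, a microtubule-associated protein of growing axons, had similar counts in both populations. They were 6, 14, 25, 10 and 18 in RFPneg and 11, 12, 7, 4 and 15 in RFPpos. The level was 51.5 ± 14.0 CPM in RFPneg and 41.6 ± 19.2 CPM in RFPpos (SD, n = 5 each). RFPpos was lower in 3 mice and higher in 2 mice, and the log2 fold change of -0.38 ± 0.42 (SE; q = 0.708) was smaller than its SE. Relative to 20 microglia markers, a scaling under which the median of all genes moved by -1.10, it was -1.48 (q = 0.00287).

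Tubb3, class III beta-tubulin, is laid down from the neuroblast stage onwards. It had 8, 2, 12, 11 and 8 counts in RFPneg and 0, 1, 2, 0 and 2 counts in RFPpos. The level was 30.5 ± 14.7 CPM in RFPneg and 4.16 ± 4.32 CPM in RFPpos (SD, n = 5 each). The populations did not overlap, although the lowest RFPneg sample, mouse 2 at 9.53 CPM, was close to the highest RFPpos sample, mouse 3 at 8.75 CPM. This gave a log2 fold change of -2.65 ± 0.83 (SE; q = 0.0162), lower in 5 of 5 mice. With mouse 1 left out q was 0.110, with mouse 4 left out 0.166, and with DESeq2 0.0686.

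Stmn2, stathmin 2, binds tubulin dimers in growing and regenerating axons and is expressed by neuroblasts and neurons (chr3:8509360-8561606 in GRCm38, plus strand). It had 9, 13, 40, 30 and 23 counts in RFPneg and 0, 0, 9, 0 and 0 counts in RFPpos. All RFPpos counts came from mouse 3, whose RFPneg sample also had the most counts, and the populations did not overlap. Mean levels were 80.5 ± 28.6 CPM in RFPneg and 7.88 ± 17.6 CPM in RFPpos (SD over 5 mice), and the fit gave a log2 fold change of -3.63 ± 0.55 (SE; q = 3.26e-09), lower in 5 of 5 mice. Without mouse 3 there were 75 counts in RFPneg and 0 in RFPpos. Against a limit of 3 counts over the RFPpos samples, Stmn2 was then at least 25.5-fold lower in RFPpos. Its call held under all 14 other settings of scaling, filter, test, block and mice in which it was tested, and its q was at most 0.00893 among them.

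Sox11, a transcription factor of neuroblasts and immature neurons, had 10, 4, 10, 1 and 8 counts in RFPneg and 0, 0, 1, 1 and 0 counts in RFPpos. The ranges overlapped, as the RFPpos sample of mouse 3 (4.38 CPM) lay above the RFPneg sample of mouse 4 (4.06 CPM), each from 1 count. The pooled level was 14.4 times higher in RFPneg, with a 95% exact counting interval from 3.69 to 124. The fitted log2 fold change was -3.38 ± 1.04 (SE; q = 0.0141), lower in 5 of 5 mice by CPM. In mouse 4, however, there was 1 count in each population (4.06 CPM in RFPneg, 3.91 CPM in RFPpos). Sox11 lost its call when any of 3 mice was left out, with q at 0.160 without mouse 1, 0.0628 without mouse 2 and 0.0506 without mouse 5, and the log2 fold change was -4.24 without mouse 4.

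Meg3 is an imprinted long non-coding RNA that is abundant in neurons and also found in endothelial cells. It had 5, 26, 47, 57 and 44 counts in RFPneg and 11, 2, 18, 5 and 27 counts in RFPpos. Mouse 1 went the other way from the rest, with 27.7 CPM in RFPneg and 55.5 CPM in RFPpos, and the populations overlapped. The level was 127 ± 72.7 CPM in RFPneg and 55.1 ± 43.8 CPM in RFPpos (SD, n = 5 each), with a log2 fold change of -1.26 ± 0.33 (SE; q = 0.00220), lower in 4 of 5 mice. Here q rose above the threshold without mouse 2 (0.159), without mouse 4 (0.258), at 0.0576 with the stricter filterByExpr filter and 0.138 with DESeq2. Of 12 endothelial markers 12 were called lower in RFPpos. Their summed level and that of Meg3 were both lowest in mouse 1 and highest in mouse 4 among the RFPneg samples. In mouse 1, however, the endothelial sum was 2442 CPM in RFPneg and 182 CPM in RFPpos while Meg3 was higher in RFPpos, and among the RFPpos samples mouse 4 had the highest endothelial sum (614 CPM) and a low Meg3 level (19.5 CPM). The part of endothelial RNA in the Meg3 difference was not tested.

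Rtn1 encodes a reticulon of the endoplasmic reticulum that is abundant in neurons and neuroendocrine cells (chr12:72211752-72409054 in GRCm38, minus strand). It had 28, 30, 80, 32 and 43 counts in RFPneg and 73, 60, 83, 77 and 29 counts in RFPpos. In CPM the RFPpos sample was the higher one in 4 of 5 mice, and in mouse 5 it was 123 against 137. The level was 151 ± 24.2 CPM in RFPneg and 274 ± 105 CPM in RFPpos (SD, n = 5 each). Rtn1 had a fitted log2 fold change of 0.78 ± 0.24 (SE; q = 0.0112), under the fold required for a call. Rtn1 was at -0.35 (q = 0.248) when library sizes were taken from the 20 microglia markers, which moved the median of all genes by -1.10. Its q was 0.0805 without mouse 1, 0.0728 without mouse 3, 0.0714 without mouse 4 and 0.136 with DESeq2. The microglia markers were higher in RFPpos in all 5 mice, and their part in the Rtn1 values was not tested. The related genes Rtn3 and Rtn4 did not pass the test in either direction (log2 fold changes 0.05 and -0.20), and Rtn2 had 1 count in all. Relative to the microglia markers Rtn3 and Rtn4 were at -1.08 and -1.33, near the median of -1.24 over all genes tested. Both were called lower there, as were 4931 of the 12270 genes tested.

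**Figure D2:**
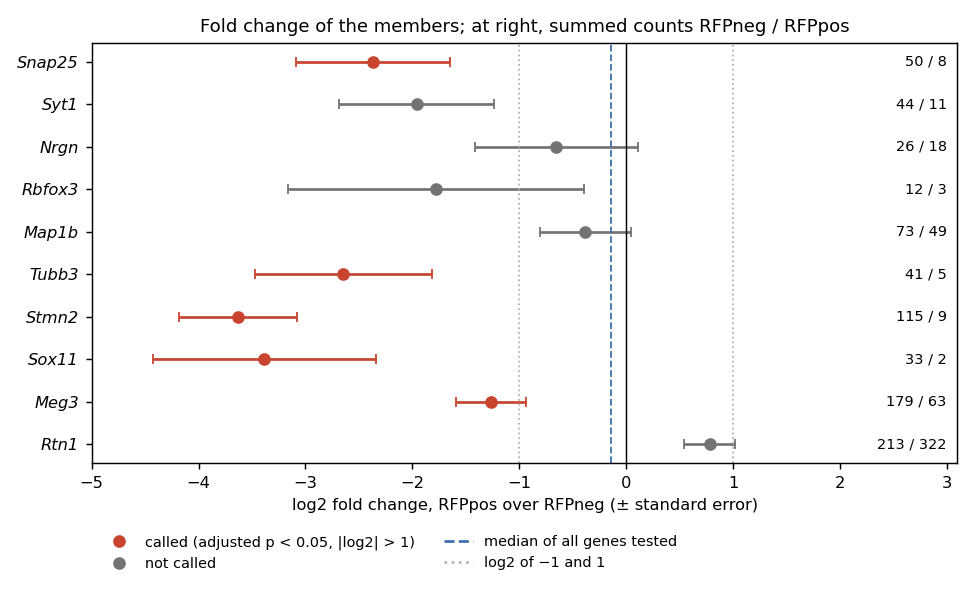
Fitted log2 fold change of each member, RFPpos over RFPneg, with its standard error (horizontal bars), in red where called and in grey where not, and the summed counts of the 5 samples of each population at the right. The called members lie between -3.63 (Stmn2) and -1.26 (Meg3), and Rtn1, at 0.78, is the only member above 0. With scaling to the microglia markers, which moved the median of all genes by -1.10, Rtn1 was at -0.35 (q = 0.248).

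On the CPM scale of 1 tag per transcript, which needs no length correction, the order of the mean levels in RFPneg was Rtn1, Meg3, Stmn2, Map1b, Snap25, Tubb3, Syt1, Sox11, Nrgn and Rbfox3. From Snap25 to Nrgn the neighbours in this order differed by less than their SD. In RFPpos, Rtn1 at 274 CPM and Meg3 at 55.1 CPM again came first, followed by Map1b at 41.6 CPM and Nrgn at 16.8 CPM, and the remaining members averaged between 1.66 CPM (Sox11) and 10.4 CPM (Syt1). Rtn1 made up 27.1% of the member counts in RFPneg and 65.7% in RFPpos, while the share of Stmn2 was 14.6% in RFPneg and 1.84% in RFPpos.

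Summed over the 10 members, the level was 487, 500.5, 628, 629 and 556 CPM in the RFPneg samples of mice 1 to 5 and 611, 292, 547, 348 and 309.7 CPM in the RFPpos samples. RFPpos was lower in 4 of 5 mice and higher in mouse 1. Without Rtn1 the sum was 332, 357, 437, 499 and 419 CPM in RFPneg and 242, 78.4, 184, 46.9 and 187 CPM in RFPpos. The populations then did not overlap, and the mean log2 ratio within mice was -1.70 ± 1.14 (SD, n = 5), against -0.47 ± 0.52 (SD, n = 5) for all 10 members.

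The genes whose levels over the 10 samples were most like the summed members were Sumo3, Arf6, Pdcd4, Imp3 and Rpl38, with Pearson's r between 0.851 and 0.893 for log2(CPM + 10) among 2174 genes with at least 200 counts. With the mean of each population subtracted they were Ier5, Arpp19, Ppp3r1, Rpl11 and Arf6, with r between 0.848 and 0.923. Of these, Ppp3r1, a calcineurin subunit, belongs to the postsynaptic and calcium genes below, and the others are broadly expressed. The nearest genes to Rtn1 alone, chosen for description after the values were seen, were Mgat1 and Lamp2, with r of 0.944 and 0.930 over the 10 samples. Rtn1 held 41.9% of all member counts and so weighs heavily in the sum, and Ier5 was also among its nearest genes (r = 0.897). These are the highest of 2174 values of r over 10 samples, and none was tested.

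Promoter windows from RefSeq (GRCm38.p6, 250 bases before to 50 after the start) were matched for 8 of the 10 members. Those of the called members Tubb3, Sox11 and Meg3 are shown, as these are the members that were lower in RFPpos, and for Meg3, which has 2 windows, the one nearest the annotated start was taken. The called members Snap25 and Stmn2 had no window. The sequences run 5′ to 3′ on the gene's strand, and capitals mark matches on either strand to 4 motifs of neuronal or general promoters, none of which overlap in these windows. The motifs were TCAGCACC and GGACAGC, the left and right parts of the RE1 element bound by the neuronal repressor REST, TGACGTCA, the cyclic AMP response element, and CCAAT.

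Tubb3, chr8:123411303-123411602, plus strand: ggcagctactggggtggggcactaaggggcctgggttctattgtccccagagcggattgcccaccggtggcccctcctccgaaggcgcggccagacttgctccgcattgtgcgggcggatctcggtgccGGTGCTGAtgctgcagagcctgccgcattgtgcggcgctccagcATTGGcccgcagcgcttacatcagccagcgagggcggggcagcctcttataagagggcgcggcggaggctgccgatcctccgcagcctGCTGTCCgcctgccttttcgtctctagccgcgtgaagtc
Sox11, chr12:27342669-27342968, minus strand: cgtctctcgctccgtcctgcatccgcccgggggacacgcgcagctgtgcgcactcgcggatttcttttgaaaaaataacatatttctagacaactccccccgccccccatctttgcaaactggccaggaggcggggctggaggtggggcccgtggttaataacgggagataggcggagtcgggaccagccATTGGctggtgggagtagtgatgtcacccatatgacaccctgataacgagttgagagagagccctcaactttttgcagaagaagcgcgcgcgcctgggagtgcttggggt
Meg3, chr12:109540746-109541045, plus strand: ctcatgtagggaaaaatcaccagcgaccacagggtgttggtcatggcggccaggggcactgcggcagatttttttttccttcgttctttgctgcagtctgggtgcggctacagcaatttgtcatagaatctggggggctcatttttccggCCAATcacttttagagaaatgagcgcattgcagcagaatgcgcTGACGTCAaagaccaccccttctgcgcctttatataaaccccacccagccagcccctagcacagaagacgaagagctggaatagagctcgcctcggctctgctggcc

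The Tubb3 window held both RE1 parts, TCAGCACC 121 bases before the RefSeq start and GGACAGC 11 bases after it, each on the opposite strand. The parts were searched for separately and lie apart on either side of the start, so they do not form 1 joined RE1 element. Among all 32851 windows of this length, 1.65% held the first and 6.56% the second. The Meg3 window held the cyclic AMP response element 57 bases before the start, a match found in 1.79% of all windows. Each of the 3 windows held CCAAT, which is found in 37.4% of all windows. The Tubb3 window was 67.3% G and C, that of Sox11 58.7% and that of Meg3 53.7%, against a median of 52.7%. These matches are a description of the letters, and no factor was measured.

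To place the members among other neuronal transcripts, 7 further lists with 137 genes were read from the same fit. Of these, 90 genes had at least 10 counts and were tested, 22 were called lower and 2 higher in RFPpos, and 72 had a log2 fold change below 0, with a median of -0.99. Among all 12270 genes tested, 6.75% were called lower and 2.80% higher, and 57.0% had a log2 fold change below 0, with a median of -0.15. In all, 27 of the 137 genes had 0 counts in all RFPpos samples, and 8 of these had 0 counts in all 10 samples. Among all 18571 genes with at least 1 count, 3007 had 0 counts in all RFPpos samples, a similar share to that of the list genes with counts. Of the called genes, 15 kept their call without each mouse in turn. Exceptions are named with their values in the next paragraphs. The summed CPM was lower in RFPpos in 5 of 5 mice for the neuronal RNA, neuroblast and channel lists (2.46, 1.43 and 1.97 times by the means). It was lower in 4 of 5 mice for the vesicle and transmitter lists (1.29 and 1.40 times) and for the postsynaptic list, at 3403 CPM in RFPneg and 3081 CPM in RFPpos, and higher in 4 of 5 mice for the axon list, at 2434 CPM in RFPneg and 2511 CPM in RFPpos, of which the called higher gene Basp1 alone held 829.6 and 1733.9 CPM, so that the other axon genes together were lower in RFPpos.

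**Figure D3:**
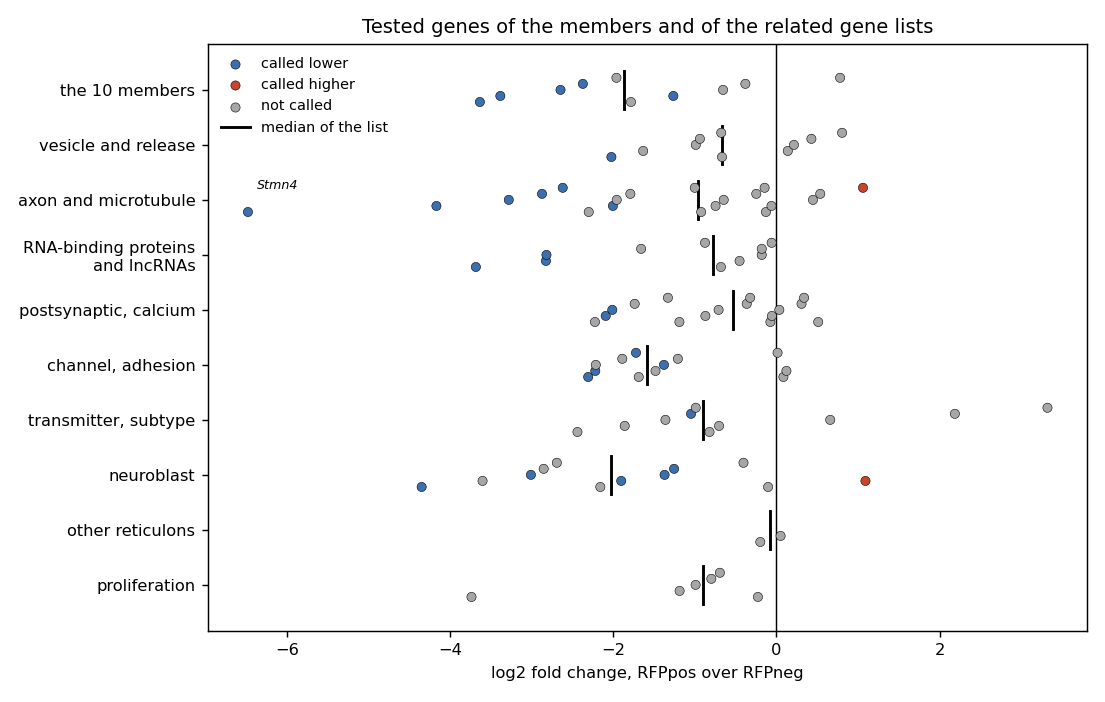
Fitted log2 fold change, RFPpos over RFPneg (horizontal axis), of the tested genes of the members, of the 7 further neuronal lists, and of the other reticulons and proliferation genes, with called genes coloured and a black bar at each list's median. Most points lie left of 0, as do 57.0% of all genes tested. The called higher genes, Basp1 and Sox4, at 1.06 and 1.09, were at -0.06 and -0.02 when scaled to the microglia markers. That scaling moved the median of all genes by -1.10.

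Calls of synaptic genes were few in number, and 6.75% of all genes tested were called lower by the same rule. Relative to the microglia markers, 6 of 10 vesicle and 11 of 16 postsynaptic genes were called lower, as were 4931 of all 12270 genes tested. Of 19 vesicle and release genes, 10 were tested and 1 was called lower, with a median log2 fold change of -0.67. It was Sv2a, a vesicle glycoprotein, which had 38, 30, 34, 15 and 43 counts in RFPneg and 4, 20, 7, 8 and 0 in RFPpos (log2 fold change -2.02 ± 0.36 (SE), q = 1.18e-06). Of 21 postsynaptic and calcium genes, 16 were tested and 2 were called lower, with a median of -0.54. Gria2, an AMPA receptor subunit, had 203 counts in RFPneg and 46 in RFPpos (-2.01 ± 0.34 (SE), q = 1.05e-07). Dlg4, which encodes the scaffold PSD-95, had 39 and 10 counts (-2.09, q = 0.0430). Dlg4 was not called without mouse 2 (0.0773), mouse 3 (0.178), mouse 4 (0.135) or mouse 5 (0.103), nor with DESeq2 or without the mouse as a block, and was -2.82 without mouse 1.

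Of 23 axon and microtubule genes, 20 were tested, 6 were called lower and 1 higher, with a median log2 fold change of -0.96. Stmn4, a stathmin, had 35, 29, 34, 13 and 40 counts in RFPneg and 1, 0, 0, 0 and 0 in RFPpos. Its pooled level was 132 times higher in RFPneg, with a 95% exact counting interval from 23.4 to 5253, and its only RFPpos count came from mouse 1. Mapt, the axonal protein tau, averaged 307 ± 72.7 CPM in RFPneg and 31.7 ± 12.7 CPM in RFPpos (SD over 5 mice; log2 fold change -3.28, q = 6.92e-27), and Tubb4a, a brain beta-tubulin, had 104 and 5 counts (-4.17, q = 2.34e-10, and -4.86 without mouse 5). Stmn1 (92 and 15 counts) and Map1a (75 and 18 counts) were also called lower. Uchl1, a neuronal ubiquitin hydrolase, had 29 and 3 counts, a pooled ratio of 8.46 with an interval from 2.62 to 43.4, and a q of 0.0460. Uchl1 was not called without mouse 2 (0.169), mouse 3 (0.0884), mouse 4 (0.252) or mouse 5 (0.0922), nor with DESeq2 or with every gene of at least 1 count, and its log2 fold change was -2.87, and -3.67 without mouse 3. Stmn4, Mapt and Tubb4a are also expressed by oligodendrocytes, whose markers fell too, as given below.

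Basp1, a growth cone protein, was the axon gene called higher. It had 187, 130, 305, 195 and 306 counts in RFPneg and 477, 467, 368, 380 and 354 in RFPpos, more in RFPpos in 5 of 5 mice. Its fitted log2 fold change was 1.06 ± 0.19 (SE; q = 9.08e-07), 0.99 with library size scaling and -0.06 relative to the microglia markers, and it was not called with either of these or with filterByExpr. The median log2 fold change of those markers was 1.19.

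Among 15 genes of neuronal RNA-binding proteins and long non-coding RNAs, 10 were tested and 3 were called lower, with a median of -0.78. Elavl3, an RNA-binding protein of neurons, had 48, 28, 46, 21 and 37 counts in RFPneg and 7, 0, 1, 1 and 4 in RFPpos (-3.68 ± 0.43 (SE), q = 9.47e-16). Rbfox2, a relative of Rbfox3 found in many tissues, had 51 and 6 counts (-2.82, q = 0.00511, and 0.0586 without mouse 5; -3.63 without mouse 4). The long non-coding RNA Snhg11 had 41 and 5 counts (-2.82, q = 0.0114, 0.218 without mouse 2 and 0.0757 without mouse 4; -4.55 without mouse 3).

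Of 14 channel, pump and adhesion genes, 12 were tested and 4 were called lower, with a median of -1.58. Among them were the synaptic adhesion gene Nrxn3 (54 and 14 counts, -1.72, q = 0.0435) and the neuronal surface glycoprotein Thy1 (70 and 13 counts, -2.31, q = 0.00118, and -3.29 without mouse 1). The potassium channel gene Kcna1 had 51 and 10 counts (-2.22, q = 0.0102). Kcna1 was not called without mouse 1 (0.126) or mouse 2 (0.136) and was -3.10 without mouse 3, and Nrxn3 was not called without mouse 1 (0.125), mouse 2 (0.222), mouse 3 (0.160) or mouse 4 (0.0506). With DESeq2 neither was called, and with limma-voom Nrxn3 was not.

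Neuroblast genes gave the lowest median of the 7 lists. Of 20 genes, 12 were tested, 5 were called lower and 1 higher, with a median log2 fold change of -2.03. Dlx1, a homeobox gene of interneuron precursors, had 2, 6, 13, 6 and 10 counts in RFPneg and 0, 0, 1, 0 and 0 in RFPpos, a pooled ratio of 32.4 with an interval from 5.46 to 1313, its only RFPpos count being that of mouse 3. Cd24a, a surface sialoglycoprotein of neuroblasts and ependymal cells, had 51 and 5 counts (-3.01, q = 0.00158, and -4.11 without mouse 5), and Meis2, a homeobox gene of olfactory bulb precursors, had 152 and 34 (-1.90, q = 1.92e-05). Those 2 genes and Dlx1 kept their calls without each mouse. Ccnd2, a cyclin of precursors, had 293 and 122 counts (-1.25, q = 5.33e-05), and its log2 fold change was -0.89 without mouse 1, short of a call. Nrep had 99 and 34 counts (-1.37, q = 0.0210, 0.160 without mouse 1 and 0.167 without mouse 3) and was not called with DESeq2.

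Sox4, the close relative of Sox11, moved the other way. It had 35, 21, 63, 17 and 42 counts in RFPneg and 57, 84, 59, 45 and 77 in RFPpos, a log2 fold change of 1.09 ± 0.24 (SE; q = 1.23e-04), higher in 5 of 5 mice by CPM and -0.02 relative to the microglia markers. The neuroblast gene Dcx, chosen after its values were seen, had 19 counts in RFPneg and 1 in RFPpos, a pooled ratio of 16.6 with an interval from 2.64 to 691 (q = 0.0698). Proliferation genes were near the detection limit. Of 8, 6 were tested and 0 were called in the fit used here and with DESeq2, while several other settings called 1 lower and the microglia marker scaling 2, and 1 of the 6 had an unadjusted p under 0.05. Top2a had 47 and 19 counts, Mki67 18 and 9, and Birc5 24 and 1, a pooled ratio of 21.0 with an interval from 3.42 to 864 (q = 0.0504).

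Many transmitter and subtype genes had few or no counts. Of 25 genes, 12 had 0 counts in all RFPpos samples, among them Pvalb, Th, Chat and Drd1, which had only 1 to 3 counts in RFPneg. Of the 10 tested, 1 was called lower and 0 higher, and the counts of calls were not stable. With DESeq2, without mouse 2 and without mouse 5 they were 0 and 0, and with limma-voom, no mouse block or mouse 1 left out they were 0 lower and 1 higher. Sst and Calb2 had most of their RFPpos counts in mouse 5, with 23 and 8 counts, and are named after their values were seen.

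**Figure D4:**
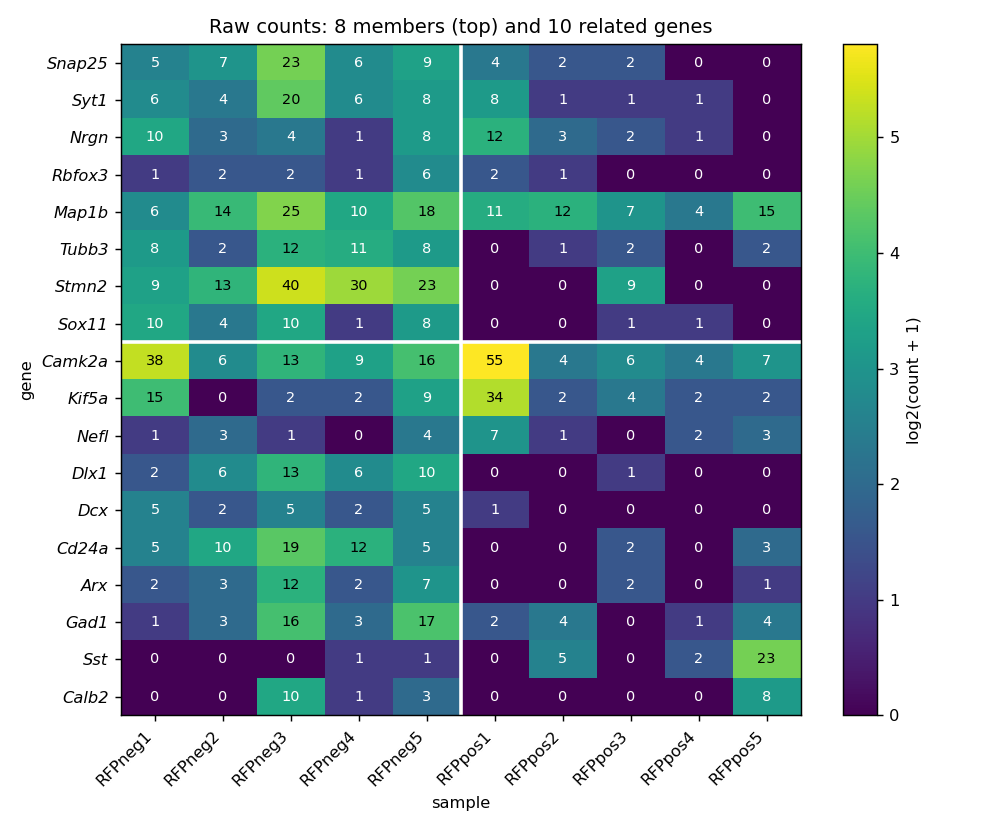
Raw counts of 8 members (above the white line) and of 10 related genes chosen after their values were seen (below it) in the 10 samples, with colour giving log2(count + 1). Mouse 1 has the most Camk2a and Kif5a counts in both populations (38 and 55, 15 and 34), and the RFPpos sample of mouse 3 holds all 9 RFPpos counts of Stmn2.

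Within RFPpos the highest counts of the members fell in different mice, a pattern described after the values were seen and not tested. Differences of 1 or 2 counts cannot be told from counting variation. Mouse 1 had the most counts of some genes of mature neurons and the fewest of others. Camk2a, a kinase of excitatory synapses, had 38 counts in RFPneg and 55 in RFPpos of mouse 1, against 6 to 16 and 4 to 7 in the other mice, and Kif5a, an axonal kinesin, had 15 and 34 counts against 0 to 9 and 2 to 4. Gria2 went the other way, with 13 counts in RFPneg and 0 in RFPpos of mouse 1 against 34 to 62 and 4 to 17. The same RFPpos sample had 8 of the 11 Syt1 counts, 12 of the 18 Nrgn counts and 4 of the 8 Snap25 counts, and 0 counts of Stmn2, Tubb3 and Sox11. The RFPpos sample of mouse 3 had all 9 Stmn2 counts, 2 Tubb3 counts, 1 Sox11 count, 1 Dlx1 count and 2 Cd24a counts. The RFPpos sample of mouse 4 had 0 counts of Snap25, Stmn2, Tubb3 and Rbfox3 and 77 of Rtn1.

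Markers of other cells moved with the comparison and are given for each list as summed CPM. The 20 microglia markers had 26342, 17045, 19189, 17325 and 23887 CPM in RFPneg and 55104.5, 44200.3, 44309, 42804 and 38278 CPM in RFPpos. Of these, 14 were called higher and 0 lower, the most abundant was Ctss, and 0 were at 0 counts. The populations did not overlap, and mouse 1 was highest in both. The 12 oligodendrocyte markers had 18960.3, 12650.4, 7866, 5205 and 8649 CPM in RFPneg and 1110.5, 1875, 2253.5, 2361 and 3763 CPM in RFPpos. Of these, 11 were called lower, and Opalin was at 0 in RFPpos. The 8 oligodendrocyte progenitor markers, led by Sox10, had 266, 253, 227, 118 and 168 CPM in RFPneg and 10.1, 64.2, 118, 74.3 and 80.6 CPM in RFPpos. Here 5 of 6 tested genes were called lower, but only 2 without mouse 1, 1 without mouse 2, 3 without mouse 3, 3 without mouse 4 and 2 with DESeq2, and Pdgfra, Cspg4, Gpr17 and Neu4 were at 0 in RFPpos.

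The 12 endothelial markers, led by Flt1, had 2442, 7126, 7949, 9696 and 5767 CPM in RFPneg and 182, 267, 311, 614 and 437 CPM in RFPpos. Astrocyte markers differed less. The 12 genes, led by Slc1a2, had 4640.4, 6583, 6141, 4949 and 5042 CPM in RFPneg and 1161, 4017, 6817, 6692 and 6096 CPM in RFPpos, with 3 called lower and 0 higher (0 and 0 without mouse 1, 1 lower with DESeq2, limma-voom or no block, 10 lower relative to the microglia markers), and the RFPpos sample of mouse 1 was the lowest. The 5 olfactory ensheathing glia markers, led by Fabp7, had 282, 715, 999, 353 and 756 CPM in RFPneg and 126, 1255, 1523, 1348.5 and 1761 CPM in RFPpos, with 3 called higher, and 0 relative to the microglia markers. The ependymal and choroid plexus list, led by Ttr, ranged from 1262 to 6468 CPM in RFPneg and from 285 to 1899.6 CPM in RFPpos, with 2 of 6 tested genes called lower (4 relative to the microglia markers) and Ak7, Ccdc153 and Tmem212 at 0 in RFPpos. The mural cell and fibroblast list, led by Vtn, ranged from 389 to 743 CPM and from 15.1 to 246 CPM, with 7 of 9 tested genes called lower (4 without mouse 1, 4 with DESeq2) and Kcnj8, Tagln, Lum and Col3a1 at 0 in RFPpos. The part of these cells in the values of the members was not tested.

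**Figure D5:**
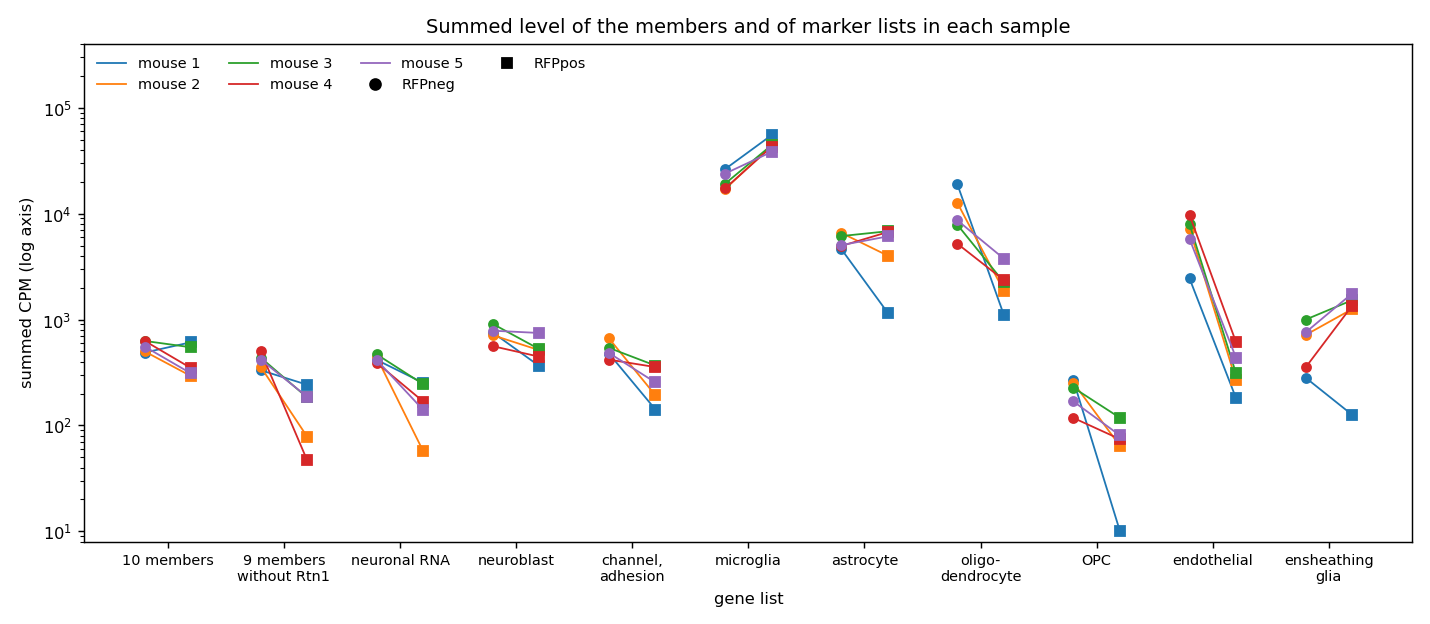
Summed CPM (log axis) of the members, of the 3 neuronal lists whose sum was lower in every mouse, and of marker lists of other brain cells, with a line joining the RFPneg (circle) and RFPpos (square) samples of each mouse. The 9 members without Rtn1 lie between 332 and 499 CPM in RFPneg and between 46.9 and 242 CPM in RFPpos, far below the microglia markers, whose lowest sum was 17045 CPM.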

How the data were processed

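The deposited matrix holds read counts that the authors made with the Lexogen QuantSeq 3′ pipeline for libraries with molecular identifiers. Reads on no gene (34.9% ± 2.24 in RFPneg, 41.5% ± 4.27 in RFPpos; SD, n = 5 each) were left out of library sizes. All 10 columns were used, and the files read here held none for the 2 single-cell samples. Genes with at least 10 counts were fitted with edgeR 4.0.16 in R 4.3.3 (quasi-likelihood, TMM factors, mouse and population as terms) and adjusted by Benjamini-Hochberg, and the code was tested on simulated data. Standard errors are |log2 fold change| divided by √F. Pooled ratios and their exact intervals use the summed counts of each population. These intervals cover counting error only, without the pairing or the variation between mice. The pairing comes from the mouse number in the labels and the study's methods. Correlations of the 2 samples of a mouse, with population means subtracted, were 0.28, -0.03, 0.24, 0.01 and 0.02 over 2176 genes.

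Alternatives were median-of-ratios, library size and microglia marker scaling, 2 filters, the edgeR likelihood ratio test, DESeq2 1.42.0, limma-voom 3.58.1, no mouse term, each mouse left out and no fold threshold. Other tools were Python 3.11.15 with pandas 2.3.3, scipy 1.17.1 and matplotlib 3.10.9. Symbols and coordinates are from GENCODE M21. The members and lists were chosen with earlier results of these data known. Genes of the further neuronal lists are named where called, with few exceptions, and others are said to have been chosen after their values were seen. The most abundant oligodendrocyte marker and 2 called genes of the neuronal lists are not reported here.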

Additional observations from a re-analysis of the deposited data

Results flagged for a closer look

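The samples of each member, and of their sum with and without Rtn1, were examined within each population for a sample far from the other 4, and 3 of 24 groups held one, where about 1.2 are expected by chance at 1 in 20. Syt1 had 40.4 CPM (8 counts) in the RFPpos sample of mouse 1, against 0 to 4.38 CPM in the other RFPpos samples. Nrgn had 60.6 CPM (12 counts) in the same sample, against 0 to 10.7 CPM. Stmn2 had 39.4 CPM (9 counts) in the RFPpos sample of mouse 3 and 0 in the other 4. The cause was not tested.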

How the results depend on the processing

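Across the alternatives, the member log2 fold changes kept their sign and result in 107 fits, lost significance or a call in 17, gained it in 7 and turned over in 1. The turned value was that of Rtn1, from 0.78 to -0.35 (q = 0.248) with library sizes from the 20 microglia markers. That scaling moved the median of all genes by -1.10. The median of all genes moved by 0.12 with filterByExpr and by -0.11 with every gene of at least 1 count. The count of members called lower, 5, was 1 with filterByExpr, where only 4 members were tested, 2 with DESeq2, 6 with median-of-ratios or library size scaling, the likelihood ratio test or limma-voom, 7 with the microglia scaling, and between 2 and 4 when 1 mouse was left out (3 without mouse 2, 2 without mouse 4). With no fold threshold 1 member, Rtn1, was called higher. Genes called lower numbered 828, and 4931 with the microglia scaling, 385 with filterByExpr, where 4210 genes were tested, and 624 to 768 with 1 mouse left out. Genes called higher numbered 343, and 8 with the microglia scaling, 206 with DESeq2 and 524 with no fold threshold. Without the paired mouse block, 5 members were called lower, and 946 genes lower and 371 higher. The mean log2 ratio of the summed members was -0.47, and -1.70 without Rtn1. The 5 genes most like the sum stayed the same with a pseudocount of 2 CPM. Of the 7 further neuronal lists, 22 genes were called lower, 58 with the microglia scaling, 11 with filterByExpr and 17 with DESeq2. Where the number of genes tested does not account for a shift, the cause was not tested.

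At this depth 1 count is several CPM. Each population had 5 samples of old males, with no young mice, and the sort holds mixed cells whose proportions were not counted. The 2 single-cell samples were not analysed.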

Other observations

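Some values of neuron subtype and myelin genes belong to single mice and were chosen after they were seen. Sst, a neuropeptide of interneurons, had 0, 0, 0, 1 and 1 counts in RFPneg and 0, 5, 0, 2 and 23 in RFPpos, where mouse 5 held most of them (q = 0.0594, not called). Calb2, calretinin, had 0, 0, 10, 1 and 3 counts in RFPneg and 8 in RFPpos, all from mouse 5. Mbp, a myelin transcript, had 171, 121, 188, 83 and 150 counts in RFPneg and 62, 21, 39, 17 and 12 in RFPpos, with the highest RFPpos count in mouse 1, where the summed oligodendrocyte markers were the lowest of the RFPpos samples.

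Syngr1, a synaptic vesicle protein named after its values were seen, was at a log2 fold change of 0.81 (q = 0.0321). It was higher in 5 of 5 mice with ranges apart and short of the fold required for a call. With library size scaling its q was 0.0670, and relative to the microglia markers its log2 fold change turned to -0.31 (q = 0.384). Sv2a, also of the vesicle list, was called lower.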
